A study of Mus musculus with 14 samples.

Results

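The genes described here encode integrins and laminins, the receptors and ligands through which epithelial cells hold on to their basement membrane. They were chosen by symbol alone, as every gene of the count table named as an integrin α or β subunit or as a laminin α, β or γ chain. This gave 31 of 19525 genes, of which 21 encode integrin subunits and 10 encode laminin chains. The symbol rule uses no expression value, but it was chosen with earlier results of these data known. The symbol rule also matched 3 genes that it left out for their spelling. *Itgb1bp1* and *Itgb3bp* encode proteins that bind an integrin tail, whereas *Itgal* encodes a leukocyte integrin subunit that had between 0 and 8 counts per library. *Itga4*, *Itga9*, *Itga11*, *Itgad* and *Lama1* were not analysed here.

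RNA was measured in spheroids grown from 4T1, a line of triple-negative mammary carcinoma cells of the mouse, after 5 days in lung-like medium, a medium with nutrient levels modelled on the fluid between lung cells. For spheroid growth assays the study describes plating on soft agar, with horse serum, Matrigel and collagen I added to this medium. Integrin ligands from outside the cells may thus have been present in every group. Every group carried a lentiviral hairpin vector and consisted of polyclonal, puromycin-selected cells. A scrambled control hairpin was used in spheroids that received 700 µM aspartate (ASP shSCR, n = 4) and in spheroids that received none (NoASP shSCR, n = 3, replicates 2 to 4). The same aspartate dose was given to spheroids silenced for *Grin2d*, which encodes an NMDA receptor subunit (ASP shGRIN2D, n = 3), and for *Dhps*, which encodes the enzyme that begins eIF5A hypusination (ASP shDHPS, n = 4). Knockdown spheroids without aspartate were not analysed here, and with 1 hairpin group per target an effect of a hairpin outside its target cannot be told apart from that of the target. Libraries of 1 group came from separate spheroid pellets of the same cell line, and p-values measure the spread between them.

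Integrins are pairs of an α and a β subunit that span the plasma membrane. The α subunit largely sets the ligand, and the β subunit tail connects to talin, kindlin and the actin cytoskeleton, or, in the case of β4, to keratin filaments in hemidesmosomes. Laminins are cross-shaped trimers of an α, a β and a γ chain that are secreted into the basement membrane. In mammary epithelium, a trimer that contains *Lama3* and *Lamb3* anchors hemidesmosomes through integrin α6β4, and the trimers of *Lama5* with *Lamc1* and *Lamb1* or *Lamb2* bind integrins α3β1 and α6β1.

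Total counts per library lay between 12731123 and 23231378. Replicate 2 of both shSCR groups stood apart, with scores of -25.8 and -19.7 on a first principal component that held 32.3% of the variance, against -8.66 to 6.28 in the other shSCR libraries and 27.6 in replicate 1 of ASP shDHPS. A gene is called here at an adjusted p under 0.05 by edgeR's quasi-likelihood test on counts, with Benjamini-Hochberg adjustment over all genes, and levels are given in CPM, a gene's counts scaled to the total of its library. *Dhps* fell in ASP shDHPS, from 19.4 ± 2.28 CPM (SD, n = 4) in ASP shSCR to 6.93 ± 1.74 (SD, n = 4), with a log2 fold change of -1.48 (SE 0.152). *Grin2d* was at 3.60 ± 0.423 CPM (SD, n = 4) in ASP shSCR and at 2.46 ± 0.59 (SD, n = 3) in ASP shGRIN2D, a log2 fold change of -0.55 (SE 0.281). The groups did not overlap, at 53 to 76 against 37 to 47 counts, and this difference was not called (adjusted p = 0.516 by edgeR). The study examined the silencing of *Grin2d* in 4T1 spheroids by quantitative PCR. Of the epithelial markers, 5 of 6 were in the table, all of them averaging 1 CPM or more. Their summed level was lower in both knockdown groups, at 3092 to 3331 CPM in ASP shGRIN2D and 3180 to 3721 CPM in ASP shDHPS against 4037 to 4125 CPM in ASP shSCR and 3988 to 4143 CPM in NoASP shSCR. The single markers did not all move alike. With *Grin2d* knockdown the log2 fold changes were -0.46 for *Krt18*, -0.33 for *Krt8*, -0.33 for *Epcam*, -0.06 for *Cdh1* and 0.05 for *Krt14*. With *Dhps* knockdown they were -0.31, -0.19, -0.52, 0.04 and -0.54 in the same order. In bulk samples, fewer cells of a type and less RNA per cell cannot be told apart.

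The 4T1 spheroids expressed an epithelial set of integrins, led by the subunits of α3β1, α6β1 and α6β4. Levels of different genes are compared here as CPM per kb of transcript, with the longest coding transcript of GENCODE M21 as the length, and as mean ± SD over all 14 libraries. *Itgb1*, the β subunit that pairs with most α subunits, had the highest level of the 31 genes, at 214.8 ± 12.6 CPM per kb. *Itga3*, whose product binds laminin as α3β1, was at 182.9 ± 24.2 CPM per kb. *Itga6*, the laminin-binding partner of β1 and β4, stood at 66.2 ± 5.93 CPM per kb, and *Itgb4*, the hemidesmosomal β subunit, at 53.2 ± 12.9 CPM per kb. *Itgb5* and *Itgav*, which pair as a receptor for vitronectin, were at 28.7 ± 3.6 and 19.2 ± 2.06 CPM per kb. At these transcript lengths *Itgb1* was above *Itga3* within every library, by a ratio of 1.03 to 2.11, whereas the ratio of *Itgb4* to *Itga6* ran from 0.437 to 1.06, so that the order of the latter pair was not the same in all libraries. *Itga3* averaged 191.8 CPM per kb with its shortest transcript as the length, and its order against *Itgb1* within libraries was not examined at that length.

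As shares of the summed level of all β subunits per kb, *Itgb1* held 68.4% ± 1.84 and *Itgb4* 19% ± 0.886 in ASP shSCR (SD, n = 4). Among the α subunits, *Itga3* held 60.7% ± 0.957 and *Itga6* 20.6% ± 1.16 (SD, n = 4). The subunits that recognise the RGD motif of fibronectin and related proteins were lower on this scale. *Itga5*, the fibronectin receptor subunit, was at 8.31 ± 0.925 CPM per kb, *Itga8*, the receptor subunit for nephronectin, at 6.91 ± 1.38 and *Itgb3* at 3.46 ± 1.68. *Itgb3* had the widest spread among these in relation to its level, and its level differed between the groups as described below.

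Among the laminin chains, 3 that share trimers were close to *Itga6*, with *Lamb1* at 67.7 ± 10.3, *Lamc1* at 58.4 ± 8.25 and *Lama5* at 53.2 ± 12.6 CPM per kb. These ranges overlapped, although *Lamb1* was above both of the others within each of the 14 libraries. *Lamb3* was at 26.8 ± 3.09 and *Lamb2* at 8.1 ± 1.57 CPM per kb. *Lama3* was at 6.47 ± 1.69 CPM per kb with its longest transcript as the length, or 12.3 with the shorter one.

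The chains that assemble with each other were not all measured at equal levels. *Lamb3* exceeded *Lama3* by a ratio of 4.31 ± 0.742 per kb over 14 libraries with the longest *Lama3* transcript as the length, and by 2.27 ± 0.39 with the shorter one. The ratios among the chains of the *Lama5* trimer were closer to 1, at 1.13 ± 0.152 for *Lamc1* over *Lama5* and 1.30 ± 0.171 for *Lamb1* over *Lama5*. *Lama5* held 88.5% ± 0.692 of the α chain level in ASP shSCR (SD, n = 4).

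**Figure D1:**
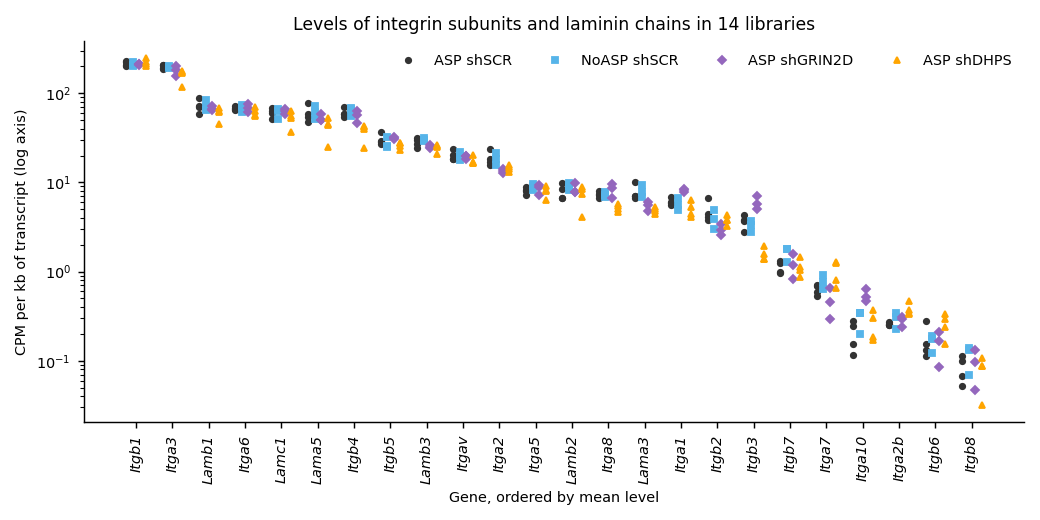
Level of 24 integrin and laminin genes with at least 5 counts in every library, in CPM per kb of transcript on a log axis, with 1 point per library and the groups side by side within each gene. The genes run from *Itgb1* at a mean of 214.8 CPM per kb to *Itgb8* at 0.0905, and *Itgb3* and *Itga10* show the ASP shGRIN2D points above the others.

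A group of members was at or near the limit of detection. *Itgae*, *Itgam* and *Itgax*, which encode leukocyte integrin subunits, never passed 6 counts in a library, and *Lama2*, *Lama4* and *Lamc3*, chains typical of muscle, vessels and other non-epithelial tissues, never passed 5. *Itgb6*, which pairs with αv, had 8 to 26 counts, and *Itgb8*, another partner of αv, had 5 to 22 counts. With these 8 genes set aside, 23 members had a mean of at least 1 CPM, among 12039 such genes in the table.

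*Itgb2*, the β subunit that leukocyte α subunits pair with, was an exception among the leukocyte genes, with a mean of 11.6 CPM. Its values were 13.1, 19.7, 12.1 and 11.3 CPM in ASP shSCR, 14.7, 8.81 and 11.4 in NoASP shSCR, 7.57, 8.63 and 10.1 in ASP shGRIN2D and 11.2, 9.53, 11.3 and 12.8 in ASP shDHPS. It was thus read in every library, whereas its known partners *Itgam*, *Itgax* and *Itgal* were at or near 0. The ASP shGRIN2D libraries lay below all ASP shSCR libraries, but the difference was not called, at a log2 fold change of -0.69 (SE 0.194, adjusted p = 0.105 by the edgeR quasi-likelihood test with Benjamini-Hochberg adjustment). Of the 6 leukocyte markers in the table, 1 reached a mean of 1 CPM, the lysosomal protein gene *Cd68*, and *Ptprc*, the pan-leukocyte marker, was at 0.0957 to 0.381 CPM as group means.

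Supplementation with aspartate addressed whether the amino acid alters this adhesion set in control spheroids. None of the 31 genes was called in ASP shSCR against NoASP shSCR by the edgeR quasi-likelihood test, and the background was 0% of 19525 genes. At an unadjusted p under 0.05 there was 1 member, *Itgb7*, and the DESeq2 Wald test called 0. An edgeR fit of the shSCR libraries alone with the replicate number as a block gave 3 such members and called 0. That fit was chosen after seeing the data. *Itgb7*, a leukocyte β subunit, was measured at 2.58, 2.67, 3.48 and 3.38 CPM in ASP shSCR and at 3.43, 4.75 and 4.84 in NoASP shSCR, with overlapping ranges and an adjusted p of 1 by the edgeR quasi-likelihood test with Benjamini-Hochberg adjustment.

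The precision for the abundant members was sufficient to bound the aspartate difference for each gene on its own, in the fit that took the libraries as unpaired. Over the 14 members that averaged 50 CPM or more, the log2 fold changes ran from -0.09 to 0.13 with standard errors of 0.0865 to 0.181. The widest limits of their 95% intervals were -0.42 for *Lama5* and 0.36 for *Itgb5*. For *Itgb1* the interval was -0.15 to 0.21, and for *Itga3* it was -0.23 to 0.25. None of the 23 members with a mean of at least 1 CPM had groups that did not overlap, where 1.1% of all such genes lay wholly higher and 1.17% wholly lower with aspartate.

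*Itgb3* had the largest fold change of any called member, in the comparison between the knockdowns. It encodes integrin β3, which pairs with αv to bind osteopontin, vitronectin and other RGD proteins. Its level was 21.7, 25.2, 21.6 and 16.1 CPM in ASP shSCR and 21.4, 16.2 and 19.1 CPM in NoASP shSCR. It was 40.5, 33.5 and 28.9 CPM in ASP shGRIN2D and 11.1, 9.06, 8.10 and 8.06 CPM in ASP shDHPS. Every ASP shGRIN2D library lay above, and every ASP shDHPS library below, all 7 shSCR libraries. *Itgb3* rose with *Grin2d* knockdown, by 0.70 on the log2 scale (SE 0.149, adjusted p = 0.019, edgeR quasi-likelihood test with Benjamini-Hochberg adjustment). It fell by 1.22 on the log2 scale with *Dhps* knockdown (SE 0.148, adjusted p = 6.4e-05, same edgeR test). Both comparisons share the ASP shSCR libraries. The direct comparison of ASP shDHPS with ASP shGRIN2D, which does not use them as a reference, gave -1.92 (SE 0.155, adjusted p = 4.89e-07 by edgeR).

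The αv partner of β3 was not called. *Itgav* was measured at 128.2, 167.0, 144.2 and 129.1 CPM in ASP shSCR, at 130.7, 139.0 and 138.2 in ASP shGRIN2D and at 118.1, 118.9, 116.7 and 144.2 in ASP shDHPS. These groups overlapped, and its 95% interval was -0.29 to 0.16 for the *Grin2d* and -0.40 to 0.01 for the *Dhps* comparison on the log2 scale. The ratio of *Itgb3* to *Itgav* per kb was accordingly 0.181 ± 0.0224 in ASP shSCR (SD, n = 4), 0.309 ± 0.063 in ASP shGRIN2D (SD, n = 3) and 0.0901 ± 0.0192 in ASP shDHPS (SD, n = 4). *Itgb5*, another αv partner, at a higher level, changed by 0.06 (SE 0.111) and -0.22 (SE 0.103) on the log2 scale with *Grin2d* and *Dhps* knockdown and was not called in either. *Itga2b*, the platelet partner of β3, had 11 to 30 counts per library and was not called.

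**Figure D2:**
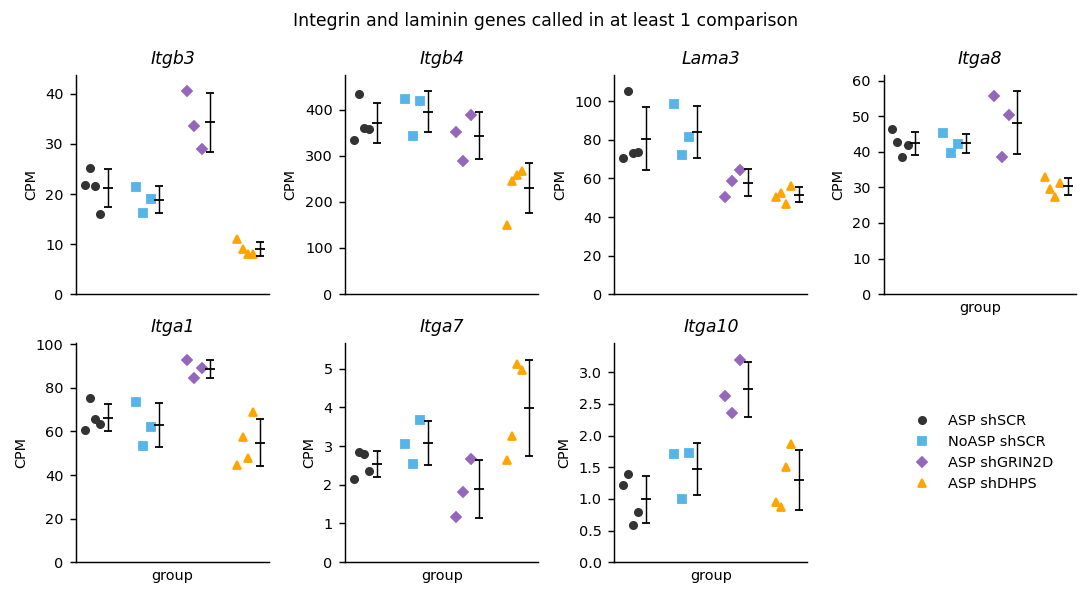
CPM of the 7 integrin and laminin genes called in at least 1 comparison, with 1 point per library and, to the right of each group, the mean and SD; the vertical axis of each panel starts at 0. *Itgb3* separates ASP shGRIN2D (28.9 to 40.5 CPM) from ASP shDHPS (8.06 to 11.1 CPM), with the shSCR libraries between them.

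With *Grin2d* knockdown 2 of the 31 members rose and 0 fell, where 1.16% of 19525 genes were called, 0.425% as higher and 0.732% as lower. The genes that rose were *Itgb3* and *Itga10*. *Itga10* encodes a collagen-binding subunit best known from cartilage. It was read at 10 to 28 counts in the ASP shSCR libraries and 40 to 51 counts in the ASP shGRIN2D libraries. Its level was 1.22, 1.39, 0.588 and 0.786 CPM in ASP shSCR, 1.71, 1.00 and 1.72 in NoASP shSCR, 2.63, 2.35 and 3.20 in ASP shGRIN2D and 0.946, 0.866, 1.51 and 1.87 in ASP shDHPS. The ASP shGRIN2D libraries lay above all others, with a log2 fold change of 1.43 over ASP shSCR (SE 0.342, adjusted p = 0.041 by the edgeR quasi-likelihood test with Benjamini-Hochberg adjustment).

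Both calls depended on single libraries. *Itga10* was no longer called when any of 6 of the 7 libraries of this comparison was left out, with log2 fold changes of 1.23 to 1.55 and an edgeR adjusted p of 0.0586 to 0.216, the exception being replicate 2 of ASP shSCR. *Itgb3* was no longer called without replicate 1 of ASP shGRIN2D (0.56, edgeR adjusted p = 0.207), without replicate 2 of ASP shGRIN2D (0.71, edgeR adjusted p = 0.0688) or without replicate 4 of ASP shSCR (0.59, edgeR adjusted p = 0.0759).

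Of the 3 collagen-binding α subunits in the table, *Itga10* was the one called with *Grin2d* knockdown, and the other two had opposite signs. *Itga1*, a receptor subunit for collagen IV and collagen I, was at 60.7, 75.2, 65.6 and 63.6 CPM in ASP shSCR, 73.4, 53.4 and 61.9 in NoASP shSCR, 93.0, 84.7 and 88.9 in ASP shGRIN2D and 44.8, 57.6, 48.0 and 69 in ASP shDHPS. The ASP shGRIN2D libraries were higher than all others, yet the log2 fold change of 0.42 over ASP shSCR was not called (SE 0.129, adjusted p = 0.148, edgeR quasi-likelihood test with Benjamini-Hochberg adjustment). *Itga2*, the other main collagen receptor subunit of epithelium, was at 110.7, 167.7, 120.5 and 131.3 CPM in ASP shSCR and at 91.7, 95.6 and 101.1 CPM in ASP shGRIN2D, with a log2 fold change of -0.46 (SE 0.126) that was also not called (edgeR adjusted p = 0.0906).

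Over the 23 members with a mean of at least 1 CPM, the median log2 fold change with *Grin2d* knockdown was -0.028, against 0.004 over the 12039 genes at this level. Groups did not overlap for 3 higher members (*Itga1*, *Itga10* and *Itgb3*) and 4 lower members (among them *Itga2*, *Itgb2* and *Lama3*), where 7.33% and 9.05% of all genes at this level lay wholly higher and lower. Of the laminin-binding subunits, *Itga6* was at a log2 fold change of 0.03 (SE 0.0984), *Itga3* at -0.15 (SE 0.117), *Itgb4* at -0.12 (SE 0.151) and the low *Itga7* at -0.44 (SE 0.295), and none of these 4 was called.

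Among the genes called lower in ASP shGRIN2D with an annotated 3′ untranslated region, 64 of 137 (46.7%) held the 7 letters TCATGAA there, against 1467 of 11074 genes (13.2%) that averaged 1 CPM or more and 8.22% of the genes called higher. The letters were searched on the transcript strand of every GENCODE M21 coding transcript, whose build, GRCm38, differs from that of the counts, and a match is a description and no site. As the rules were chosen with earlier results of these data known, the share among the genes called lower is not an independent result. The lengths of the untranslated regions were not matched, and the difference in shares was not tested. Of the 23 members at this level, 2 held the letters (8.7%), *Itgav* and *Lama3*. *Itgb3* and *Itga10*, the called members, held none. The surroundings of the match are shown for *Itgav* and for *Tns1*, an adhesion gene described below, with the 7 letters in capitals, as a member at this level and the called adhesion gene that hold them.
Itgav: atagtaaatccTCATGAAtacattattta
Tns1: caccccccaccTCATGAAtcctacttctc
The match began at base 2532 of 3581 in the untranslated region of *Itgav* and at base 2163 of 4299 in that of *Tns1*. *Lama3*, whose match is not shown, was measured at a log2 fold change of -0.48 with *Grin2d* knockdown (SE 0.134), with groups that did not overlap and an edgeR adjusted p of 0.099. Among the other adhesion genes listed below that hold the letters, *Nedd9* at -0.43 (SE 0.142) and *Lims1* at -0.32 (SE 0.0877) also lay wholly lower, and neither was called (edgeR adjusted p of 0.206 and 0.095). Of the further listed genes with the letters, *Zyx* (0.14), *Ccn2* (-0.01), *Dst* (-0.10) and *Icam1* (-0.22) had overlapping groups and were not called. *Fras1* was near the limit of detection, and *Tns1* rose, as described below. *Itgav* was at -0.06, with overlapping groups.

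With *Dhps* knockdown 4 of the 31 members fell, *Itgb3*, *Itgb4*, *Lama3* and *Itga8*, and 0 rose, where 4.22% of 19525 genes were called, 1.65% as higher and 2.57% as lower. Among the 12039 genes that averaged 1 CPM or more, the called share was 6.56%. The products of 2 of these genes, integrin β4 and the laminin α3 chain, face each other across the hemidesmosome, the structure that fixes basal epithelial cells to the basement membrane.

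*Itgb4* was at 333.1, 433.0, 361.1 and 358.7 CPM in ASP shSCR, 423.3, 343.7 and 417.7 in NoASP shSCR, 352.2, 288.0 and 388.5 in ASP shGRIN2D and 149.6, 245.4, 259.0 and 267.5 in ASP shDHPS. All ASP shDHPS libraries lay below all others, and replicate 1 was the lowest. The gene fell by 0.69 on the log2 scale (SE 0.14, adjusted p = 0.0066, edgeR quasi-likelihood test with Benjamini-Hochberg adjustment). Its share of the β subunit level per kb was 19% ± 0.886 in ASP shSCR and 12.8% ± 3.25 in ASP shDHPS (SD, n = 4 each), while that of *Itgb1* was 68.4% ± 1.84 and 75.9% ± 4.2. *Itga6*, the partner of β4, was not called, with a 95% interval of -0.32 to 0.06 on the log2 scale, and the ratio of *Itgb4* to *Itga6* per kb was 0.891 ± 0.115 in ASP shSCR and 0.602 ± 0.123 in ASP shDHPS (SD, n = 4 each).

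*Lama3* was at 70.7, 105.2, 73.4 and 73.5 CPM in ASP shSCR, 98.8, 72.4 and 81.5 in NoASP shSCR, 50.4, 58.9 and 64.3 in ASP shGRIN2D and 50.6, 52.6, 46.8 and 56.1 in ASP shDHPS. Both knockdown groups lay below every shSCR library, and replicate 2 was the highest library of both shSCR groups. The gene fell by 0.65 on the log2 scale with *Dhps* knockdown (SE 0.124, adjusted p = 0.00427, edgeR quasi-likelihood test with Benjamini-Hochberg adjustment). Without replicate 2 of both shSCR groups the difference was -0.49 (edgeR adjusted p = 0.00561). The difference of ASP shDHPS from ASP shGRIN2D was not called, at -0.17 with a 95% interval of -0.44 to 0.11.

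*Itga8* encodes the α8 subunit, which pairs with β1 to bind nephronectin. It was at 46.3, 42.9, 38.6 and 41.9 CPM in ASP shSCR, 45.2, 39.8 and 42.3 in NoASP shSCR, 55.7, 38.5 and 50.4 in ASP shGRIN2D and 33.0, 29.5, 27.3 and 31.3 in ASP shDHPS. The ASP shDHPS libraries lay below all 10 others. The gene fell by 0.49 on the log2 scale (SE 0.109, adjusted p = 0.0118, edgeR quasi-likelihood test with Benjamini-Hochberg adjustment), and without replicate 3 of ASP shDHPS the fall was no longer called (-0.44, edgeR adjusted p = 0.0518).

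The most abundant subunits showed smaller differences. *Itgb1* was at 820.4 ± 45.1 CPM in ASP shSCR and 842.8 ± 74.4 CPM in ASP shDHPS (SD, n = 4 each), with a 95% interval of -0.13 to 0.20 on the log2 scale. *Itga3* was at 939.6, 1015, 1004 and 904.4 CPM in ASP shSCR and at 569.4, 826.8, 834.2 and 866.6 CPM in ASP shDHPS. The groups of *Itga3* did not overlap, and the log2 fold change of -0.32 (SE 0.108) was not called (edgeR adjusted p = 0.101). *Itga2* had a log2 fold change of -0.37 (SE 0.116) and was not called either (edgeR adjusted p = 0.0774).

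**Figure D3:**
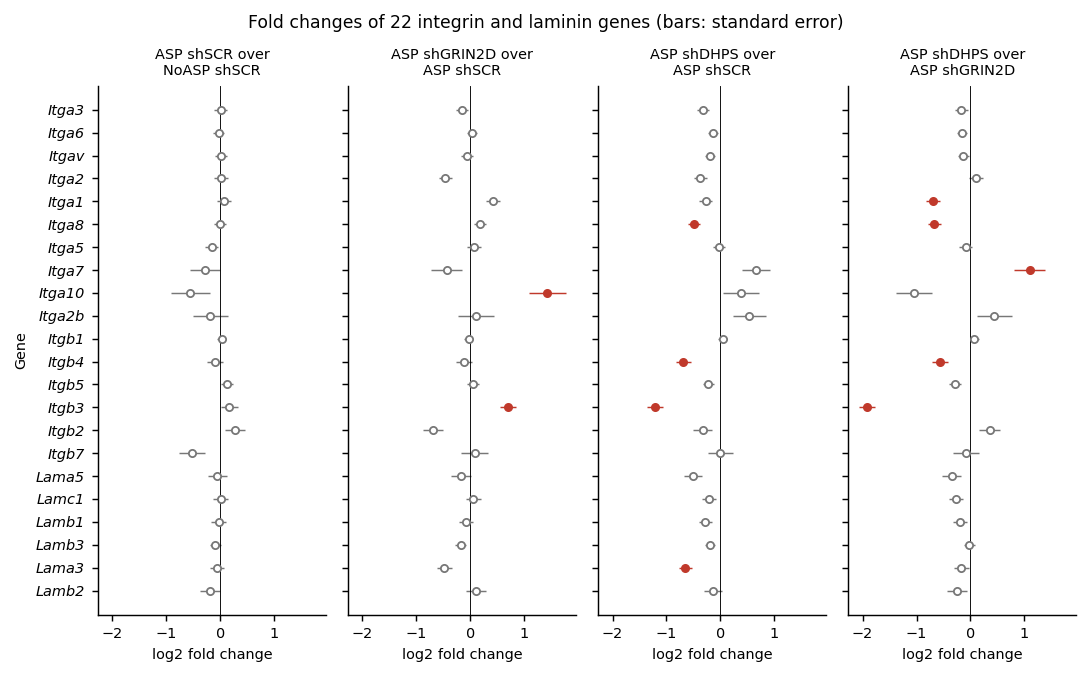
Log2 fold changes of 22 integrin and laminin genes that averaged 1 CPM or more in the 4 comparisons, with the standard error as the bar; filled red points were called at an adjusted p under 0.05 (edgeR quasi-likelihood test), open points were not. In ASP shDHPS over ASP shSCR, 17 of 22 points lie below 0 and *Itgb7* lies at -0.001, and in ASP shSCR over NoASP shSCR no point is filled.

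Over the 23 members, groups did not overlap for 1 higher member (*Itga2b*) and 6 lower members (among them *Itga3*, *Itga8*, *Itgb3*, *Itgb4* and *Lama3*) with *Dhps* knockdown, against 7.31% and 8.52% of all genes at this level.

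The 7 laminin chains with a mean of at least 1 CPM all had lower fitted levels with *Dhps* knockdown, with log2 fold changes from -0.65 to -0.14 and a median of -0.278, against -0.004 over all genes at this level. Of these, 1 was called (*Lama3*) and 5 had an unadjusted p under 0.05, a level that 3769 of all 19525 genes reached. *Lama5* was at 542.6, 877.3, 667.4 and 612.2 CPM in ASP shSCR and at 283.1, 500.3, 507.9 and 599.4 in ASP shDHPS, with overlapping groups and a log2 fold change of -0.51 (SE 0.168, edgeR adjusted p = 0.0884). *Lamb1*, *Lamc1*, *Lamb3* and *Lamb2* had log2 fold changes of -0.28, -0.21, -0.20 and -0.14.

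Single libraries lay at both ends of these laminin values. Replicate 1 of ASP shDHPS was the lowest library of its group for 6 of the 7 chains and for 15 of the 23 members (65.2%), against 32.7% of all genes at this level. Replicate 2 was the highest library in both shSCR groups for 15 of the 23 members (65.2%), against 24.2% of all genes, and the lowest in both for 0 members, against 20.9%. *Lama5* showed both, with 877.3 and 817.3 CPM in replicate 2 of the shSCR groups and 283.1 CPM in replicate 1 of ASP shDHPS. The 4 members called with *Dhps* knockdown were also called without replicate 2 of both shSCR groups.

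**Figure D4:**
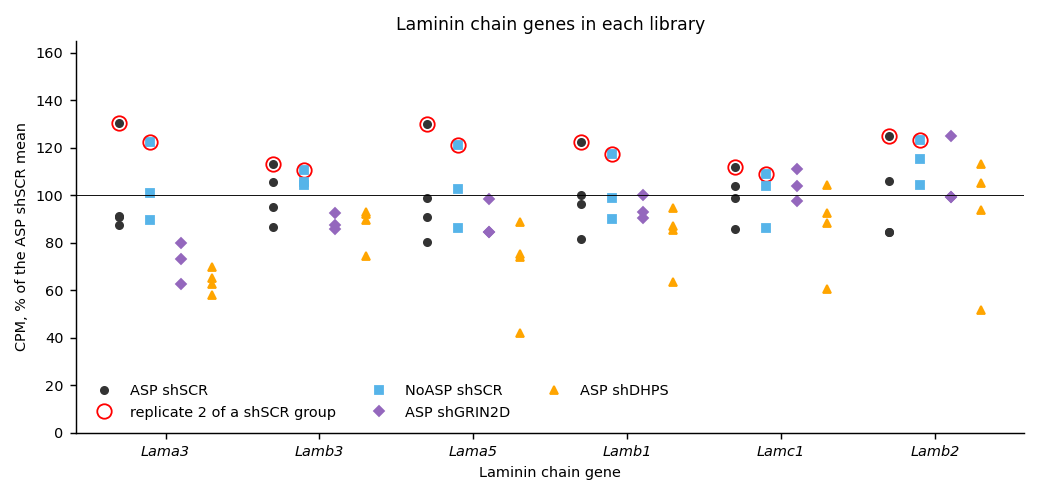
CPM of 6 laminin chain genes in each library as a percentage of the ASP shSCR mean, with 1 point per library and red rings around replicate 2 of both shSCR groups. *Lama3* lies at 57.9% to 69.4% in ASP shDHPS and 62.4% to 79.7% in ASP shGRIN2D, and the ringed libraries are the highest shSCR points for each chain.

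Transcript length moved with the *Dhps* result. Genes of at least 6 kb had a median log2 fold change of -0.169 with *Dhps* knockdown and genes under 2 kb one of 0.09, whereas with *Grin2d* knockdown these medians were -0.02 and 0.021. Of the 23 members, 7 were at least 6 kb, 11 between 4 and 6 kb, 5 between 2 and 4 kb and 0 shorter. The median of the 23 members was -0.219, and 19 of them (82.6%) had a negative sign against 50.7% of all genes at this level. With the length trend removed, *Itgb3*, *Itgb4*, *Lama3* and *Itga8* were again the called members, at log2 fold changes of -1.10, -0.57, -0.41 and -0.37 in place of -1.22, -0.69, -0.65 and -0.49. The epithelial markers *Epcam* and *Krt14* fell in the same comparison, by 0.52 (SE 0.0817) and 0.54 (SE 0.0924) on the log2 scale, while *Cdh1* was at 0.04 (SE 0.0907), and their part in the integrin and laminin differences was not tested.

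The direct comparison of ASP shDHPS with ASP shGRIN2D asked which members differ between the knockdowns. It called 5 of 31, *Itgb3*, *Itgb4*, *Itga8* and *Itga1* as lower and *Itga7* as higher in ASP shDHPS, where 2.82% of 19525 genes were called, 1.2% as higher and 1.62% as lower. *Itga8* differed by -0.67 (SE 0.116, adjusted p = 0.00171, edgeR quasi-likelihood test with Benjamini-Hochberg adjustment) and *Itga1* by -0.70 (SE 0.129, adjusted p = 0.00311, same edgeR test). *Itga1* was called in neither comparison with ASP shSCR, and its 84.7 to 93.0 CPM in ASP shGRIN2D lay above its 44.8 to 69 CPM in ASP shDHPS.

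*Itgb4* differed by -0.57 (SE 0.15, edgeR adjusted p = 0.0382), a call that was lost without scaling of the libraries, with edgeR's expression filter and with a robust prior (edgeR adjusted p of 0.0515 to 0.0951). It was also lost without replicate 1 (-0.55) or 3 (-0.47) of ASP shGRIN2D and without replicate 1 (-0.41) or 2 (-0.61) of ASP shDHPS. *Itga7* encodes a laminin-binding subunit of muscle and was near the lower end of the measured levels. It was at 2.14, 2.84, 2.79 and 2.36 CPM in ASP shSCR, 3.05, 2.53 and 3.67 in NoASP shSCR, 1.18, 1.82 and 2.67 in ASP shGRIN2D and 2.63, 3.26, 5.13 and 4.96 in ASP shDHPS. The ASP shGRIN2D and ASP shDHPS libraries overlapped slightly, and the log2 fold change between them was 1.10 (SE 0.29, edgeR adjusted p = 0.0405). It rested on 23 to 40 counts against 49 to 95 counts, and the call was lost without replicate 1 (0.84) or 2 (1.08) of ASP shGRIN2D and without replicate 3 (0.95) or 4 (0.98) of ASP shDHPS.

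No laminin chain was called between the knockdowns. The log2 fold changes of the 7 chains ran from -0.35 to -0.02, and 0 had an unadjusted p under 0.05. Over the 23 members, groups did not overlap for 1 higher member (*Itga2b*) and 6 lower members (*Itga1*, *Itga10*, *Itga8*, *Itgb3*, *Itgb4* and *Itgb5*), against 10.6% and 10.1% of all genes at this level.

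Of 82 other adhesion genes listed as integrin ligands, cytoplasmic integrin partners and basement membrane or hemidesmosome components, 77 were in the table and 64 had a mean of at least 1 CPM. With aspartate, 0 were called by edgeR, and 0 had an unadjusted p under 0.05. With the replicate number as a block within the shSCR libraries, a fit chosen after seeing the data, 2 were called with aspartate, *Plec*, a hemidesmosome linker, at -0.27 (edgeR adjusted p = 0.0151) and *Vcam1*, a counter-receptor for α4 integrins, at 0.43 (edgeR adjusted p = 0.00181) on the log2 scale, where 64 of all 19525 genes (0.328%) were called. With *Grin2d* knockdown 2 rose and 0 fell. With *Dhps* knockdown 1 rose and 6 fell, and between the knockdowns 2 were higher and 6 lower in ASP shDHPS. Of all 12039 genes that averaged 1 CPM or more, 0.64% were called higher and 1.17% lower with *Grin2d* knockdown. These shares were 2.6% and 3.96% with *Dhps* knockdown and 1.92% and 2.49% between the knockdowns. The median log2 fold changes of the adhesion genes at this level were -0.05, -0.013, -0.158 and -0.114 in the 4 comparisons, against 0.003, 0.004, -0.004 and 0.004 over all genes at this level.

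Among the cytoplasmic partners, *Tns1* was called in the same comparisons as *Itgb3*. It encodes tensin 1, which binds the tails of β subunits and actin at fibrillar adhesions. It was at 10.3, 13.0, 7.69 and 11.5 CPM in ASP shSCR, 12.7, 8.92 and 11.9 in NoASP shSCR, 20.9, 17.6 and 21.7 in ASP shGRIN2D and 3.20, 5.40, 5.83 and 6.35 in ASP shDHPS. The ASP shGRIN2D libraries lay above and the ASP shDHPS libraries below all shSCR libraries. *Tns1* rose by 0.92 on the log2 scale with *Grin2d* knockdown (SE 0.19, adjusted p = 0.0135) and fell by 1.03 with *Dhps* knockdown (SE 0.191, adjusted p = 0.00356), both by the edgeR quasi-likelihood test with Benjamini-Hochberg adjustment. The rise was not called without replicate 1 (0.89, edgeR adjusted p = 0.0831) or 3 (0.86, edgeR adjusted p = 0.103) of ASP shGRIN2D. Between the knockdowns *Tns1* differed by -1.95 (SE 0.198, edgeR adjusted p = 3.12e-06). *Fermt1*, the epithelial kindlin, chosen after its values were seen, fell by 0.44 with *Dhps* knockdown (SE 0.126, edgeR adjusted p = 0.0489). This call was kept under 6 of 10 alternative settings. Those that lost it included the fits without replicate 2 of both shSCR groups (-0.34) and with the length trend removed (-0.36). It was also lost without any library but replicate 1 of either group (-0.47 to -0.34). *Fermt1* was also lower with *Grin2d* knockdown, at -0.40 (SE 0.137) without overlap, but was not called (edgeR adjusted p = 0.226). Between the knockdowns it differed by -0.04 (SE 0.137) and was not called.

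A ligand of αvβ3, *Spp1*, and one of α8β1, *Npnt*, were read at high levels. So were the listed integrin ligands *Fn1*, *Thbs1* and *Mfge8*, at means of 1240.5, 646.9 and 300.7 CPM in ASP shSCR. Other listed ligands of αvβ3 were low, with means of 3.25 to 6.75 CPM per group for *Tnc* and of under 1 CPM for *Ibsp*, *Postn* and *Fbln5*. *Fn1* (-0.88) and *Thbs1* (-0.54) were called lower in ASP shDHPS than in ASP shGRIN2D (edgeR adjusted p of 0.0473 and 0.028). These calls were kept in 2 and 1 of 7 fits that left out a library. *Spp1* encodes osteopontin, a ligand of αvβ3. It was at 4656, 5152, 4384 and 4350 CPM in ASP shSCR and at 3556, 2843, 3441 and 2987 CPM in ASP shDHPS, groups that did not overlap. *Spp1* fell by 0.53 on the log2 scale with *Dhps* knockdown (SE 0.104, edgeR adjusted p = 0.0048), while with *Grin2d* knockdown it was at 0.12 (SE 0.111) and was not called. *Npnt* encodes nephronectin, the basement membrane ligand of α8β1. It was at 335.8, 347.8, 285.1 and 295.2 CPM in ASP shSCR and at 215.7, 247.4, 228.2 and 237.2 CPM in ASP shDHPS, again without overlap. *Npnt* fell by 0.45 on the log2 scale (SE 0.0931, edgeR adjusted p = 0.00765). Both genes were also lower in ASP shDHPS than in ASP shGRIN2D, *Spp1* by -0.66 (edgeR adjusted p = 0.00139) and *Npnt* by -0.43 (edgeR adjusted p = 0.0193). The latter call was lost without replicate 1 (-0.37) or 3 (-0.42) of ASP shGRIN2D or replicate 3 of ASP shDHPS (-0.42).

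*Ccn1*, a matricellular ligand of αv and α6 integrins, was the listed gene that rose with *Dhps* knockdown. It was at 30.0, 28.4, 37.6 and 36.1 CPM in ASP shSCR and at 68.6, 71.8, 78.4 and 87.8 CPM in ASP shDHPS. All ASP shDHPS libraries were higher than all others, at a log2 fold change of 1.22 (SE 0.158, edgeR adjusted p = 0.000124). *Thbs2*, which encodes the matricellular thrombospondin 2, rose with *Grin2d* knockdown from 1.57, 0.613, 1.57 and 0.864 CPM to 2.88, 4.05 and 3.47 CPM, by 1.55 on the log2 scale (SE 0.352, edgeR adjusted p = 0.0282). That call was kept without replicate 1 or 3 of ASP shSCR and lost without any other library of the comparison (1.33 to 1.67, edgeR adjusted p of 0.0681 to 0.153). Between the knockdowns *Thbs2* differed by -1.65 (edgeR adjusted p = 0.0108), which was lost without replicate 2 of ASP shGRIN2D (-1.52, edgeR adjusted p = 0.0634). *Tnc*, which encodes the matrix protein tenascin C, was higher in ASP shDHPS than in ASP shGRIN2D by 1.05 (SE 0.239, edgeR adjusted p = 0.0156), a call lost without any 1 library of ASP shGRIN2D (1.02 to 1.07) or replicate 4 of ASP shDHPS (0.87).

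In the basement membrane group, *Col7a1* encodes the anchoring fibrils beneath hemidesmosomes. It was at 37.1, 58.0, 43.9 and 41.8 CPM in ASP shSCR and at 15.5, 29.0, 30.2 and 29.7 CPM in ASP shDHPS. The groups did not overlap, and the gene fell by 0.79 on the log2 scale (SE 0.188, edgeR adjusted p = 0.0174). The call was lost without replicate 2 of ASP shSCR (-0.65, edgeR adjusted p = 0.0627) and with a robust prior (edgeR adjusted p = 0.0915). *Col7a1* was also lower with *Grin2d* knockdown, at -0.68 (SE 0.205) without overlap, but was not called (edgeR adjusted p = 0.14). Between the knockdowns it differed by -0.11 (SE 0.205) and was not called. *Bcam*, which encodes a receptor for the laminin α5 chain and was chosen after its values were seen, fell by 0.72 (SE 0.188, edgeR adjusted p = 0.0317), a call lost without replicate 1, 3 or 4 of ASP shDHPS or replicate 1 or 2 of ASP shSCR (-0.77 to -0.62). The hemidesmosome genes *Col17a1*, *Plec* and *Dst*, chosen after their values were seen to complete the structure, were not called with *Dhps* knockdown, at 0.32 (SE 0.192), -0.28 (SE 0.242) and -0.16 (SE 0.188) on the log2 scale.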

How the data were processed

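Polyadenylated RNA of the cytosolic lysate of 14 spheroid pellets was sequenced with a stranded kit. The authors trimmed reads with Trim Galore 0.6.6, mapped them to GRCm39 with STAR 2.6.1, estimated gene abundance with Salmon 1.4.0, rounded the estimates to whole counts and deposited a count table of 19525 genes. Salmon divides shared reads by estimation, so counts of overlapping genes are less certain. Tables of the authors' own fold changes and gene set scores were not used.

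The deposited counts were tested with edgeR 4.0.16 (R 4.3.3), with TMM factors (0.984 to 1.02), all 14 libraries, the group as the only term and Benjamini-Hochberg adjustment over 19525 genes. The standard error is that of the log2 fold change, and CPM were scaled by the TMM factors. The procedure was tested on simulated data. Transcript lengths and 3′ untranslated regions came from GENCODE M21 (18948 genes, 97.0%, all 31 members), which is on another build, so no coordinates are given. Members with at most 3 counts in every library received no fold.

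Named in full were the members called in any comparison, the 6 most abundant integrin subunits and laminin chains, and up to 4 called genes of the adhesion list per direction and comparison. The values of 1 member are not reported here, although it is part of the counts and medians. The members, the lists and the rules were chosen with earlier results of these data known. Total counts were 12731123 to 23231378 per library. Whether replicate numbers pair the libraries was checked by correlating deviations from the group means over 10224 genes. Between both shSCR groups the 3 values of r were 0.514, 0.287 and 0.203, each over 0.1, a pairing seen in the data, as the labels give a number no meaning. No 2 libraries of the same group agreed within sampling noise. The alternatives were RLE size factors, no scaling, edgeR's filterByExpr, a robust prior, the DESeq2 1.42.0 Wald test, only the groups compared, the replicate block, removal of the length trend, leaving out replicate 2 of both shSCR groups and leaving out each library in turn.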

Additional observations from a re-analysis of the deposited data

Results flagged for a closer look

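Replicate 2 of ASP shSCR lay far from the other libraries of its group for *Lama3*, at 105.2 CPM, with a gap to the nearest library of 0.919 of the group's range. This was the single case among 14 groups of 4 libraries examined, and chance gives about 1 in 20.

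The effects of both knockdowns differed from each other by the direct test for 5 members. ASP shDHPS minus ASP shGRIN2D was -1.92 for *Itgb3*, -0.57 for *Itgb4*, -0.67 for *Itga8*, -0.70 for *Itga1* and 1.10 for *Itga7* on the log2 scale.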

How the results depend on the processing

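The number of called integrin and laminin genes was 0 under every alternative for aspartate. For *Grin2d* knockdown it was 2, and became 6 with the replicate block, 5 with the length trend removed, 5 with DESeq2, 4 with only the groups compared, 6 with these groups and the block (added after seeing the data) and 0 to 2 without a library (0 without replicate 1 or 2 of ASP shGRIN2D or replicate 4 of ASP shSCR and 1 without replicate 3 of either group). For *Dhps* knockdown it was 4, and became 9 with the replicate block, 8 with DESeq2, 11 with the groups compared and the block, and 3 to 6 without a library. Between the knockdowns it was 5, and became 8 and 9 with these blocks and 3 to 4 without a library (3 without replicate 1 of ASP shGRIN2D). The calls over all genes moved too, from 226 to 611 with the block, 307 with the length trend removed, 442 with DESeq2, 374 with the groups compared and 363 with these and the block for *Grin2d* knockdown, from 824 to 2150 with the block, 1379 with DESeq2 and 2026 with the groups compared and the block for *Dhps* knockdown, and from 550 to 1468 and 1527 with these blocks between the knockdowns. The block changed no member call for aspartate, the comparison whose numbers pair the libraries. In the others not every r was over 0.1, with r of -0.117 to 0.042 (*Grin2d*), 0.0404 to 0.258 (*Dhps*) and 0.00533 to 0.231 (between the knockdowns). In replicates 1 to 3 of the *Dhps* comparison r was 0.258, 0.195 and 0.201. These values do not settle whether its libraries are paired. For the other adhesion genes the count with aspartate was 0, and 2 with the groups compared and the block. With *Grin2d* knockdown it was 2, and 8 with the block, 4 with DESeq2, 4 with the groups compared, 4 with these and the block, and 0 to 2 without a library (0 without replicate 1 or 3 of ASP shGRIN2D and 1 without its replicate 2 or without replicate 2 or 4 of ASP shSCR). With *Dhps* knockdown it was 7, and 23 with the block, 12 with DESeq2, 23 with the groups compared and the block, and 4 to 8 without a library (4 without replicate 2 of ASP shSCR). Between the knockdowns it was 8, and 19 with the block, 22 with the groups compared and the block, and 4 to 7 without a library (4 or 5 without any 1 library of ASP shGRIN2D or replicate 3 of ASP shDHPS). No called gene of either list changed sign under any alternative. The cause of these shifts was not tested. Depth limits *Itga10*, *Itga7*, *Itga2b* and *Itgb7*, which had 10 to 95 counts per library.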
